A study of Mus musculus with 42 samples.

Results

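A set of 10 genes that respond to oxidative stress were followed through every bulk RNA-Seq library of a study of mouse uterine natural killer (NK) cells and through its joined single-cell matrix. They were Hmox1, Txnrd1, Srxn1, Gclm, Gclc, Nqo1, Slc7a11, Osgin1, Nfe2l2 and Prdx1, chosen by name, and all were found by symbol among the 54353 genes that the 34 bulk libraries share. The libraries fall into 4 experiments and 17 groups, with 2 libraries in each group. All cells were wild-type, from C57BL/6 mice, with no treatment in vivo named in the labels. Tissue-resident NK cells (trNK cells, CD49a+) were sorted from the uterus of virgin mice and at gestational days 6.5 and 8.5 (gd6.5, gd8.5), and at gd8.5 they were also separated by surface CD55 and 4-1BB into CB_low, CB_int and CB_hi cells, which the study calls trNK-V, trNK-D and trNK-T.

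In the inhibitor culture, NK1.1+ cells were isolated after no in vitro treatment (control), after 20 ng/mL of interleukin-21 (IL-21) for 3 days, or after the same IL-21 with 1 µM Stattic, a small-molecule inhibitor of the transcription factor STAT3 (IL-21 plus Stattic). The labels give µM for Stattic, whereas the methods print mM beside the same number. The study describes the starting cells of this experiment as trNK-V cells of gd6.5 mice, cultured for 72 h in IL-15 medium with or without the additions. The labels themselves give no culture time for the control. In the time course, trNK cells of gd6.5 mice were cultured in IL-15 with or without 20 ng/mL IL-21 and taken at 0, 6, 24 and 72 h. The labels do not say whether the 2 libraries of a group came from separate mice, so every p below measures only the spread between these libraries, which may be technical. For the single cells, NK1.1+NKp46+ cells of pooled virgin and pooled gd8.5 uteri were tagged, mixed and captured together.

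NRF2, the protein encoded by Nfe2l2, is a transcription factor that KEAP1 marks for degradation in unstressed cells. When reactive or oxidizing compounds modify KEAP1, NRF2 accumulates, pairs with small MAF proteins and binds antioxidant response elements, where BACH1 otherwise sits as a repressor. Its targets renew glutathione, reduce oxidized proteins and quinones, supply NADPH and break down heme. Hmox1 encodes heme oxygenase 1, which opens the heme ring and is also induced by heat shock and by heme itself; macrophages that take up red blood cells use it constantly.

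Part of the antioxidant response element, the core TGACNNNGC, was searched for in RefSeq promoter windows of GRCm38.p6 that run from 250 bases before to 50 bases after each annotated start. Of the 10 genes, 8 were in the table, and 5 of these held the core on either strand: Nfe2l2, Srxn1, Gclm, Prdx1 and 1 of the 3 windows of Txnrd1. Over all 32851 windows, 12.4% held it, and 14% of genes held it in any of their windows. No match was found in the windows of Slc7a11, Nqo1 and Osgin1, which says only that these letters are not there, and Hmox1 and Gclc were not in the table. The matches are shown with 10 bases on each side, 5′ to 3′ on the strand of the gene, because this core is the part of the element that NRF2 is known to read; capitals mark the core, which on the opposite strand reads GCNNNGTCA.
Nfe2l2, chr2:75704885-75704913, minus strand, 240 bases before the start: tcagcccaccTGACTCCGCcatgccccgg
Srxn1, chr2:152105542-152105570, plus strand, at base 29 after the start: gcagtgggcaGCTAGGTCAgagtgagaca
Gclm, chr3:122245413-122245441, plus strand, 134 bases before the start: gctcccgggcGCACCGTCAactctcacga
Prdx1, chr4:116685456-116685484, plus strand, 133 bases before the start: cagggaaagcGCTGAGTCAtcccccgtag
Txnrd1, chr10:82859104-82859132, plus strand, 92 bases before the start: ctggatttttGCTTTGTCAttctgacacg
A match is a description of the sequence, and no binding was measured in the data used here.

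The libraries held 11862089 to 66468883 reads counted in genes, and the 2 libraries of every group differed by far more than counting noise. Levels are given as RPKM, the reads of a gene divided by its exon length and by the library's total, so genes of different length can be set side by side. Genes entered a test when their RPKM passed 10 in both libraries of any group of the experiment. They were compared by edgeR's quasi-likelihood test with Benjamini-Hochberg adjustment over all genes tested, and a gene is called when its adjusted p is under 0.05 and its fold change over 2. An exact permutation test of 2 libraries against 2 cannot go below p = 0.333.

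With Stattic added to IL-21, Hmox1 was the most abundant of the 10 genes after Prdx1. Against IL-21 alone, 4 genes of the set were called higher, where 1.83% of all genes tested were. They were Hmox1, the sulfiredoxin gene Srxn1, and Gclc and Gclm, for both subunits of the enzyme that starts glutathione synthesis. Gclc and Gclm could enter the test only by being higher with Stattic, so this count is a description. None of the 4 calls held with a replicate block or with edgeR's more permissive level filter. Hmox1 (mm10 chr8:75093621-75100589, plus strand) stood at 23.9 and 17.7 RPKM in the control libraries, 190.1 and 513 RPKM with IL-21, and 2640 and 2691 RPKM with IL-21 plus Stattic. The 3 groups did not overlap, and the 2 IL-21 libraries lay farther apart than the other pairs. The log2 fold change of IL-21 plus Stattic against IL-21 was 3.05 ± 0.47 (SE, n = 2 and 2; adjusted p = 0.0218). In such bulk samples, fewer cells of a type and less RNA per cell cannot be told apart.

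The glutathione genes were low where Stattic was absent. Gclc, the catalytic subunit of glutamate-cysteine ligase, was at 5.88 and 6.63 RPKM in the control, 6.67 and 4.78 RPKM with IL-21, and 28.8 and 21.7 RPKM with IL-21 plus Stattic, a log2 fold change against IL-21 of 2.23 ± 0.42 (SE; adjusted p = 0.0392). Gclm, the modifier subunit, was at 7.85 and 3.66, 4.98 and 4.75, and 17.7 and 26.4 RPKM in the same order, a log2 fold change of 2.28 ± 0.47 (SE; adjusted p = 0.0477). Both genes passed the level filter only through the libraries with Stattic, so they could enter the test only by being higher there. Slc7a11, the cystine carrier that feeds this pathway, had no read in 4 of the 6 libraries, did not exceed 0.552 RPKM in any, and was not tested.

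Among the genes that reduce oxidized proteins, Srxn1, which repairs overoxidized peroxiredoxins, was at 6.75 and 19.3 RPKM in the control, 17.7 and 37.6 RPKM with IL-21, and 326 and 138 RPKM with IL-21 plus Stattic. All its Stattic libraries lay above all others, and its log2 fold change against IL-21 was 3.19 ± 0.66 (SE; adjusted p = 0.0483). Prdx1, an abundant peroxiredoxin, was at 635 and 395 RPKM in the control, 1986 and 1386 RPKM with IL-21, and 3237 and 4274 RPKM with IL-21 plus Stattic. Its 3 groups did not overlap either, but the step from IL-21 to IL-21 plus Stattic, 1.25 ± 0.38 on the log2 scale, did not pass the test (adjusted p = 0.134). Txnrd1, which recycles thioredoxin with NADPH, was at 17.2 and 21.4, 13.2 and 26.5, and 59.0 and 25.3 RPKM, and its IL-21 and Stattic libraries overlapped (adjusted p = 0.230). Txnrd1 overlaps a predicted gene on the opposite strand, and the sources used here do not say whether reads were counted by strand.

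Nqo1, a quinone reductase, was at 47.7 and 27.6 RPKM in the control, 67.0 and 75.1 RPKM with IL-21, and 136 and 178 RPKM with IL-21 plus Stattic. The groups were again in the same order without overlap, and the step between the last 2 was 1.25 ± 0.37 on the log2 scale (adjusted p = 0.123). Osgin1, a growth inhibitor induced by oxidative stress, was at 13.3 and 30.1, 3.59 and 19.5, and 160.5 and 111 RPKM. It had the largest log2 fold change of the 10 genes in this comparison, 3.69 ± 0.78 (SE), but the spread between its 2 IL-21 libraries was wide and the adjusted p was 0.0517. Without replicate 2 of IL-21, the higher of the 2 at 19.5 RPKM, the log2 fold change of Osgin1 was 5.32 against the lone library left. Nfe2l2 itself was at 54.9 and 54.7 RPKM in the control, 27.9 and 46.8 RPKM with IL-21, and 85.0 and 117 RPKM with IL-21 plus Stattic, a log2 fold change against IL-21 of 1.55 ± 0.35 (SE) that missed the threshold (adjusted p = 0.0644).

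**Figure D1:**
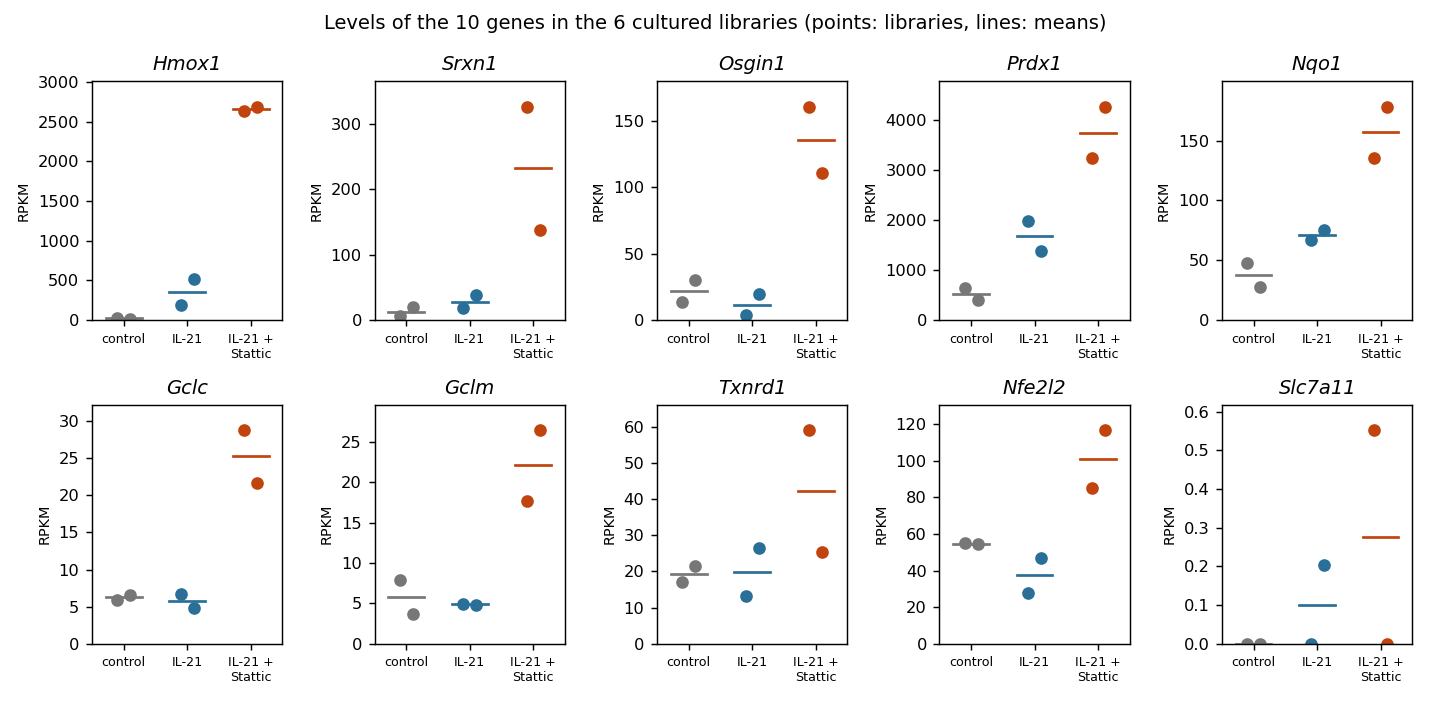
RPKM (linear axes from 0, 1 panel per gene) of the 10 genes in each library of the inhibitor culture (points, 2 per group; lines, group means; control, IL-21, IL-21 plus Stattic). Hmox1 climbs from 23.9 and 17.7 in the control to 2640 and 2691 with Stattic, and in every tested gene except Txnrd1 both Stattic points lie above both IL-21 points.

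Of the 9 genes tested, 4 were called higher with IL-21 plus Stattic than with IL-21, where 3.00% of the 4099 genes tested were called in either direction and 1.83% higher. The groups did not overlap in 8 of the 9, all higher with Stattic, and in 49% of all genes, 20.1% higher. Because Gclc and Gclm could enter only by being higher with Stattic, these counts are a description. Of the 6 genes that passed the filter in both groups, 2 were called, Hmox1 and Srxn1. The calls were near the threshold. None of the 4 held with a replicate block or with edgeR's more permissive level filter, and Gclm was also lost with RLE size factors. When a library was left out, Hmox1 was called only without replicate 2 of IL-21, and Gclc, Gclm and Srxn1 lost their calls without any 1 of the 4 libraries. Under the other 5 settings tried, among them DESeq2 and limma-voom, Hmox1 was called, while the 123 genes called over all became 1 to 30 without a library. The log2 fold change of Hmox1 stayed between 2.601 and 3.89 through all of these.

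Against the control, with which this comparison shares its Stattic libraries, 6 of the 9 genes rose with IL-21 plus Stattic, where 4.81% of genes were called. These 197 genes became 19 to 41 without any 1 of the 4 libraries, 55 with the block, 21 with filterByExpr and 577 with DESeq2. The log2 fold change of Hmox1 was 7.29 ± 0.57 (SE; adjusted p = 0.00284). Srxn1 rose by 4.43 ± 0.70 (adjusted p = 0.0153), Prdx1 by 3.15 ± 0.41 (adjusted p = 0.00834) and Nqo1 by 2.35 ± 0.38 (adjusted p = 0.0153). Gclc rose by 2.29 ± 0.42 (adjusted p = 0.0240) and Gclm by 2.23 ± 0.47 (adjusted p = 0.0367). Gclc and Gclm passed the filter only through the Stattic libraries and Srxn1 only through the IL-21 and Stattic libraries, so these 3 could not enter through the control. Of the 6 genes that passed in both groups, 3 were called: Hmox1, Prdx1 and Nqo1. Osgin1, at 2.92 ± 0.76, Nfe2l2, at 1.17 ± 0.34, and Txnrd1, at 1.41 ± 0.48, did not pass (adjusted p = 0.0719, 0.101 and 0.141). All 9 were higher in both Stattic libraries than in both controls, as were 16.6% of all genes. Hmox1 was called under every setting tried and without each of the 4 libraries in turn, with a log2 fold change of 7.15 to 7.60. Srxn1, Nqo1, Gclc and Gclm lost their calls with the replicate block, these 4 and Prdx1 lost them with filterByExpr, and when a library was left out only Srxn1 (without replicate 2 of either group) and Prdx1 (without replicate 1 of IL-21 plus Stattic) were still called beside Hmox1.

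By the labels alone, which give no culture time for the controls, treatment and time in culture cannot be told apart in either comparison with them. The study describes culture for 72 h with or without the additions, which would give the controls the same time. With IL-21 alone, set against the same controls, Hmox1 and no other gene of the set passed the test. Its log2 fold change was 4.24 ± 0.50 (SE; adjusted p = 0.0221), and it was 1 of 12 genes called, or 0.293% of those tested, all of them higher. The 12 became 2, 8, 6 and 19 without replicate 1 and 2 of the control and replicate 1 and 2 of IL-21, 0 with filterByExpr and 162 with DESeq2, of which 103 were higher. This call did not hold with the replicate block, with filterByExpr, with only the groups compared, or without replicate 1 or replicate 2 of the control, and the log2 fold change lay between 3.40 and 4.73 when any 1 of the 4 libraries was left out. Prdx1 was higher in both IL-21 libraries than in both controls, at 1.91 ± 0.39 on the log2 scale (adjusted p = 0.0975), and so was Nqo1 at 1.10 ± 0.36 (adjusted p = 0.334). Nfe2l2 was lower in both IL-21 libraries than in both controls, at -0.38 ± 0.34 (adjusted p = 0.840). Over all genes, 10.9% were higher without overlap and 41.5% did not overlap in either direction. The other members tested lay between -0.77 for Osgin1 and 1.25 for Srxn1, with adjusted p of 0.644 or more.

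**Figure D2:**
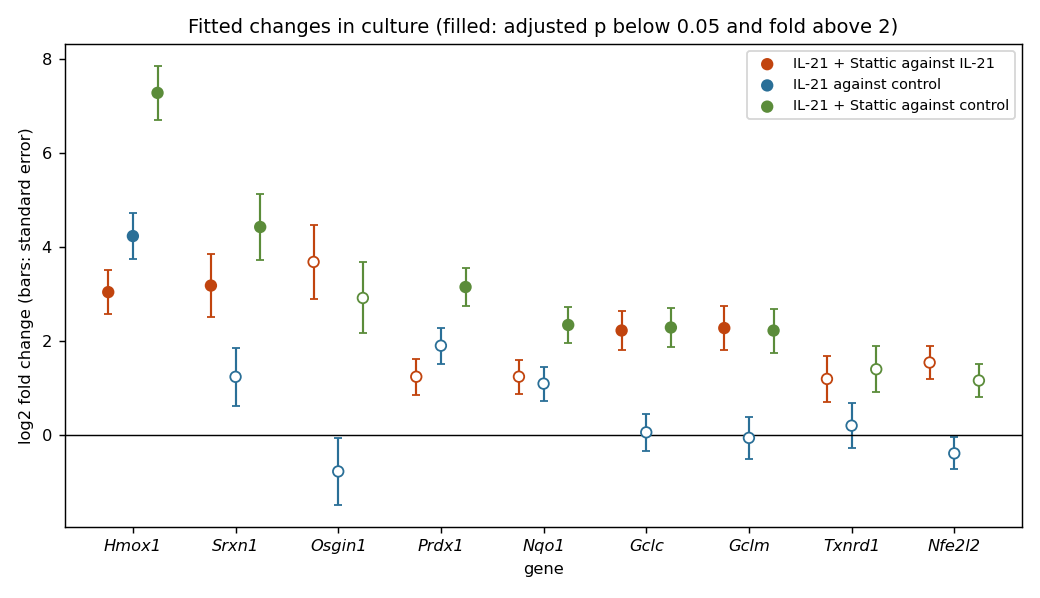
Log2 fold changes (points) with standard errors (bars) from edgeR (filled points are called) for the 9 tested genes in the 3 comparisons of the inhibitor culture, n = 2 libraries per group. Hmox1 lies at 4.24 for IL-21 against control, 3.05 for IL-21 plus Stattic against IL-21 and 7.29 for IL-21 plus Stattic against control, and the 3 comparisons share libraries.

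Of 10 listed regulators of NRF2, 4 could be tested in this culture. All 4 had log2 fold changes above 0 with Stattic against IL-21, as had 1985 of the 4099 genes tested. Their median was 1.28, and 0 were called. Of the regulators whose levels follow, Keap1 and Bach1 did not pass the level filter and were not tested, while Mafg was tested. Regulators could enter through the Stattic libraries alone, as Mafg did, so the directions and the median are a description. Keap1, which holds NRF2 down, was at 0.684 and 2.47 RPKM in the control, 2.57 and 8.17 RPKM with IL-21 and 10.3 and 4.84 RPKM with IL-21 plus Stattic, so the last 2 groups overlapped. The repressor Bach1 ran from 1.82 to 4.56 RPKM in the 4 libraries without Stattic and was at 6.83 and 14.7 RPKM with it. Mafg, a small MAF partner, was at 3.86 and 9.57 RPKM with IL-21 and 30.5 and 18.9 RPKM with Stattic, 2.00 on the log2 scale (adjusted p = 0.172). It passed the filter only through the Stattic libraries, and Mafk was at 1.72 and 9.43 against 27.1 and 6.13 RPKM.

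Beyond the 10 genes, 77 further genes of glutathione, thioredoxin, quinone, NADPH, heme and iron metabolism and NRF2 control were listed, of which 39 were tested in the culture. Against IL-21 alone, 1 of the 39 rose with Stattic, the peroxiredoxin gene Prdx6, by 1.45 ± 0.30 on the log2 scale (SE; adjusted p = 0.0471), and none fell. Over all genes tested 3.00% were called, so nothing about the pathway is read from this count. The median of the 39 was 0.56, against -0.03 over all genes tested. Listed genes could enter through the Stattic libraries alone, so these values are a description. Against the control, where 4.81% of all genes were called, 6 rose and 2 fell. The 4 largest rises were the esterase gene Esd at 2.54, G6pdx, which makes NADPH, at 2.53, the amino acid carrier subunit Slc3a2 at 2.39 and the ferritin heavy chain Fth1 at 2.15. The falls were Gsto1 at -2.31 and Sesn1 at -2.25. With IL-21 alone 0 of the 39 were called, where 0.293% of all genes were.

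Other stress genes moved in the same libraries. Of 9 heat shock genes tested, 6 rose with Stattic against IL-21, with a median log2 fold change of 3.69 over the 9. Over all genes, 1.83% were called higher. The 3 genes named next entered the test only through the Stattic libraries, so the count and the median are a description. Hsph1, a large chaperone, went from 6.58 and 6.51 RPKM with IL-21 to 398 and 280.1 RPKM with Stattic, 5.79 on the log2 scale (adjusted p = 0.00116). Hspa1a, an inducible HSP70, was at 0.0277 and 0.425 RPKM with IL-21 and 187 and 156 RPKM with Stattic, and its near copy Hspa1b was at 0.234 and 2.30 against 599 and 430.1 RPKM. Reads may be shared between these copies, and all 3 genes reached the filter only with Stattic. Against the control, where 4.81% of all genes were called, all 9 heat shock genes rose, with a median of 4.47. Of 8 genes of the ATF4 response, 1 rose against IL-21, Ddit3, by 2.01 from 83.7 and 77.3 to 234 and 373 RPKM. Against the control 3 of the 8 rose, Atf3 by 6.03, Ddit3 by 2.60 and Atf4 by 1.70, with a median of 1.86 over the 8. Of 9 genes that respond to STAT3, 0 were called with Stattic against IL-21 and the median was -0.53. The median of the same 9 against the control was 1.36 both with IL-21, where 1 was called, and with IL-21 plus Stattic, where 0 were. Bcl3 was at 24.3 and 36.4 RPKM with IL-21 and 8.67 and 9.32 RPKM with Stattic, and it rose with IL-21 against the control by 3.28 (adjusted p = 0.0406). Heat shock genes and Hmox1 thus moved in the same libraries, and the part of either in the other was not tested.

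Macrophages and red cell precursors are known for high Hmox1. The summed RPKM of 12 macrophage genes was 20.7 to 23.8 in the control, 23.2 to 29.8 with IL-21 and 19.9 to 21.1 with IL-21 plus Stattic. Nearly all of it was Cd68, and 9 of the 12 genes, including C1qa, C1qc, Csf1r, Adgre1 and Lyz2, were at 0 in both libraries of each group. The erythroid genes summed to 0.380 to 1.05, 0.842 to 2.46 and 0.0897 to 3.95 RPKM in the same order, so their libraries overlapped between all 3 groups. The part of either list in the levels of Hmox1 was not tested. Of 8 NK identity genes, 1 was called with Stattic against IL-21, and Prf1 was the gene that fell.

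In the order of group means, Hmox1 was highest in IL-21 plus Stattic (2666 ± 36.1 RPKM, SD, n = 2), then IL-21 (352 ± 229) and the control of the same culture (20.8 ± 4.40). The next group was the time course at 6 h with IL-21 (9.96 ± 4.17). CB_hi cells followed at 3.54 ± 0.03 and CB_low cells at 2.82 ± 3.89. The other 11 groups had means of 1.73 RPKM or less, and from CB_hi down neighbours in this order differed by less than their spread. No read of Hmox1 was counted in 9 of the 34 libraries, 8 of them in the time course, where a count of 0 allows up to 0.0291 to 0.0600 RPKM depending on depth. Each experiment was fitted apart, so levels are set side by side across experiments without a test.

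**Figure D3:**
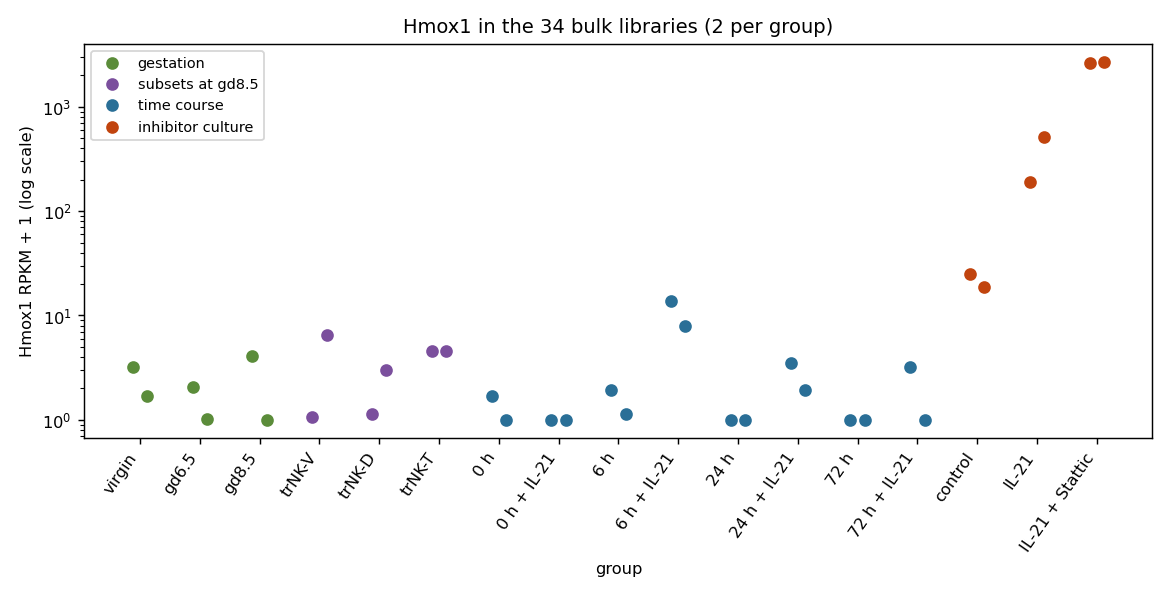
Hmox1 as RPKM + 1 on a log axis in all 34 bulk libraries (points, 2 per group), coloured by experiment and ordered by condition. The libraries with Stattic at 2640 and 2691 RPKM and those with IL-21 for 3 days at 190.1 and 513 RPKM stand above all others.

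In the time course, Hmox1 was detected mainly at 6 h with IL-21. It was at 0.943 and 0.138 RPKM without IL-21 (101 and 16 reads) and 12.9 and 7.01 RPKM with it (1390 and 426 reads), but its second library did not reach the level filter, so it was not tested. The 12 macrophage markers summed to 24.4 to 31.2 RPKM at 6 h without and 11.3 to 18.6 RPKM with IL-21. Nearly all of this was Cd68, at means of 26.6 and 14.8 RPKM, and 8 and 9 of the 12 genes were at 0. The erythroid markers had no read at 6 h with IL-21, and the part of either list in Hmox1 was not tested. At 24 h Hmox1 had no read in either library without IL-21 and stood at 2.52 and 0.932 RPKM with IL-21, and at 72 h it was at 2.22 and 0 RPKM with IL-21 and had no read without. The 72 h libraries with IL-21 and the 3 day libraries of the inhibitor culture, at 190.1 and 513 RPKM, thus differ widely under IL-21 at the same labelled concentration.

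Other genes of the set were also higher at 6 h with IL-21. Gclm was at 4.39 and 2.44 RPKM without and 13.2 and 14.6 RPKM with IL-21, 2.01 ± 0.58 on the log2 scale (adjusted p = 0.134). Nqo1 was at 4.88 and 2.45 against 12.3 and 18.6 RPKM (adjusted p = 0.862), Nfe2l2 at 11.7 and 9.28 against 16.03 and 21.4 RPKM (adjusted p = 0.484) and Prdx1 at 877 and 1004 against 1377 and 1182 RPKM (adjusted p = 0.506). The share of reads from mitochondrial genes was 3.57% and 3.78% without IL-21 at 6 h and did not exceed 2.54% with it, and its part in these levels was not tested. None of these 4 tested genes was called, where 1.96% of all genes were (68 genes, and 0 without replicate 1 with IL-21 and 13 to 16 without each other library), although in all 4 both IL-21 libraries lay above both others, as in 30.2% of all genes. Gclm alone had an unadjusted edgeR p under 0.05, and DESeq2 and limma called it. Gclm and Nqo1 passed the filter only through these IL-21 libraries. Of the 4, Prdx1 alone passed it in both groups. Srxn1, not tested, was at 3.64 and 2.49 against 7.995 and 8.98 RPKM, Gclc at 2.37 and 0.635 against 2.74 and 6.94 RPKM, and Txnrd1 at 4.40 and 4.53 against 6.97 and 7.41 RPKM.

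In the other 6 comparisons of the time course 0 of the 4 genes were called, with backgrounds of 0% for IL-21 at 0 h, 1.67% at 24 h and 8.03% at 72 h, and of 0%, 0.0864% and 14.9% for the successive times without IL-21. Without a library in turn, the 58 genes called at 24 h became 1 to 5, the 279 at 72 h 240 to 1020 (the highest without replicate 1 of 72 h without IL-21), and the 518 from 24 h to 72 h 238 to 1256 (238 without either 24 h library, 1256 without replicate 1 of 72 h). Unadjusted edgeR p under 0.05 were found for 0 of the 4 in the first 5 of these and for 2 in the last, from 24 h to 72 h without IL-21. Nfe2l2 was then at 8.93 and 9.997 RPKM at 24 h and 16.4 and 16.3 RPKM at 72 h (log2 1.14, adjusted p = 0.0832), and Nqo1 went from 4.76 and 0 RPKM to no read. Osgin1 did not exceed 1.41 RPKM in any of these libraries. Of the 32 listed pathway genes tested, 1 fell with IL-21 at 6 h and 1 at 24 h, in both cases Gstm1, a glutathione transferase, by 1.63 and 1.87 on the log2 scale. At 72 h Glrx, a glutaredoxin, rose by 1.14 and Mgst3 fell by 1.89, and without IL-21 Akr1c13 fell by 1.38 from 24 h to 72 h. The 72 h libraries without IL-21 stood apart, with 8.44% and 11.8% of reads from mitochondrial genes. At 24 h this share was 4.76% and 4.58% without and 2.28% and 2.80% with IL-21.

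**Figure D4:**
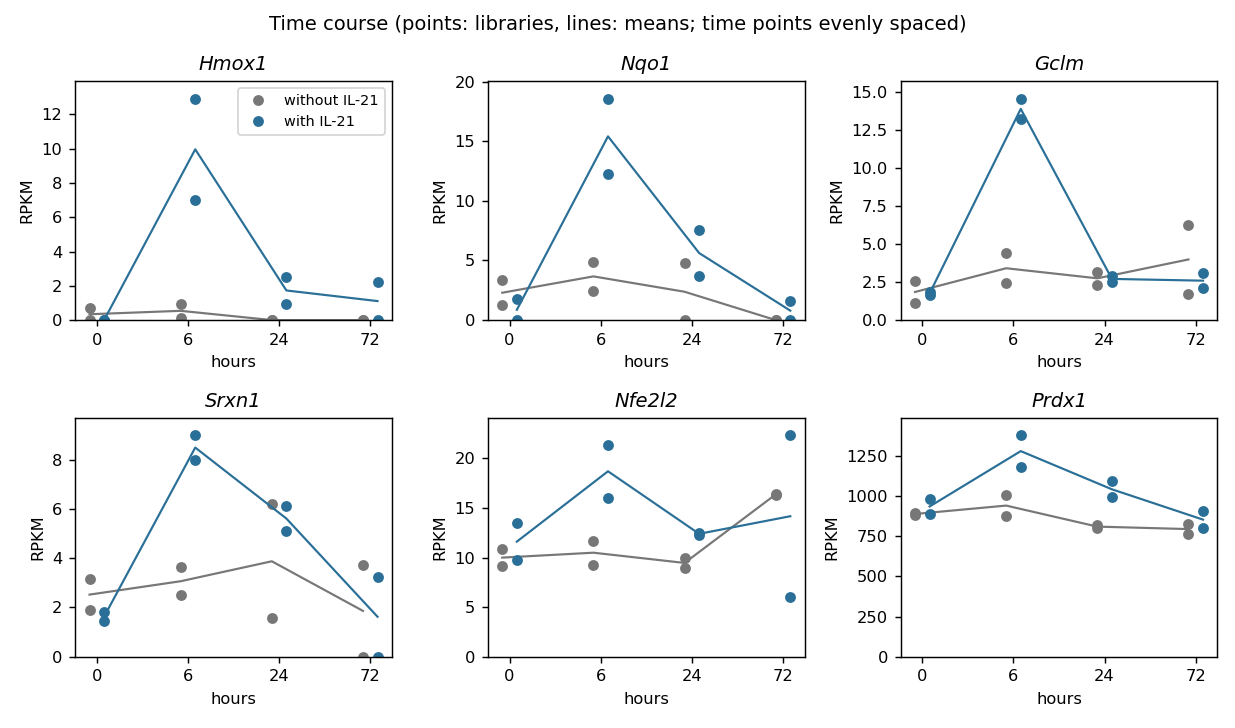
RPKM of Hmox1, Nqo1, Gclm, Srxn1, Nfe2l2 and Prdx1 (linear axes from 0) in the time course at 0, 6, 24 and 72 h, without and with IL-21 (points, 2 libraries per group, lines through the means). At 6 h Hmox1 is at 12.9 and 7.01 with IL-21 against 0.943 and 0.138 without, and Gclm at 13.2 and 14.6 against 4.39 and 2.44.

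In the subsets of gd8.5, Nfe2l2 was lower and Prdx1 higher in CB_hi than in CB_low cells, and both passed the test. Nfe2l2 was at 27.6 and 29.1 RPKM in CB_low, 34.4 and 21.9 RPKM in CB_int and 13.2 and 6.40 RPKM in CB_hi, so both CB_hi libraries lay below all others. Its log2 fold change in CB_hi against CB_low was -1.53 ± 0.37 (SE; adjusted p = 0.0231), and against CB_int it was -1.52 ± 0.37 (adjusted p = 0.0874). Nfe2l2 passed the level filter only through CB_low and CB_int, the groups where it is high, and with filterByExpr the call was lost (-1.35 ± 0.36, adjusted p = 0.0690). Prdx1 was at 211 and 168, 299 and 387, and 369 and 412 RPKM, a log2 fold change of 1.05 ± 0.20 in CB_hi against CB_low (adjusted p = 0.0122). Txnrd1 was at 6.22 and 8.28, 9.69 and 10.1, and 11.03 and 12.4 RPKM, which missed the test (adjusted p = 0.0522) and entered it only through CB_hi. Osgin1 ran from 14.3 to 21.8 RPKM over all 6 libraries.

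These 2 calls were 2 of 4 members tested, where 21.3% of all genes were called between CB_hi and CB_low, and the groups did not overlap in any of the 4 or in 75% of all genes. Of the 2 members that passed the filter in both groups, Prdx1 and Osgin1, Prdx1 was called. In CB_int against CB_low 0 of the 4 were called (0.324% of genes) and in CB_hi against CB_int also 0 (1.75%), with 1 of the 4 at an unadjusted edgeR p under 0.05 in each: Prdx1 in the first, at 0.87 on the log2 scale (adjusted p = 0.127), and Nfe2l2 in the second, which was called with DESeq2, with the replicate block and with no filter. Without a library in turn, Nfe2l2 kept its call only without replicate 1 of CB_hi, and Prdx1 kept it without replicate 1 of CB_low or of CB_hi. Nfe2l2 had log2 fold changes of -2.16 to -1.11 over these omissions and Prdx1 of 0.96 to 1.28.

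The 12 macrophage markers moved along with the subsets, summing to 58.0 to 388 RPKM in CB_low, 288 to 398 in CB_int and 25.8 to 29.9 in CB_hi. Lyz2 alone was at 19.3 and 269 RPKM in CB_low, 212 and 303 RPKM in CB_int and 1.97 and 4.61 RPKM in CB_hi. Markers of T cells moved as well: 6 genes summed to 161 to 165 RPKM in CB_low, 58.7 to 88.9 in CB_int and 27.96 to 31.9 in CB_hi, and the 3 of them that were tested were all called lower in CB_hi than in CB_low. The 6 stromal markers summed to 4.602 to 51.9, 2.11 to 4.78 and 0.513 to 0.688 RPKM in the same order. Nfe2l2 stood at 27.6 RPKM in the CB_low library with the lower macrophage sum and at 29.1 RPKM in the other, and the part of any of these markers in the difference of Nfe2l2 was not tested. Hmox1 was at 0.0740 and 5.57 RPKM in CB_low (2 and 137 reads), 0.137 and 2.03 RPKM in CB_int and 3.52 and 3.56 RPKM in CB_hi, and was not tested. Within CB_low and within CB_int the library with more Lyz2 had more Hmox1, and in CB_hi Hmox1 was counted with the least Lyz2. The part of the macrophage markers in these levels of Hmox1 was not tested. Of 41 listed pathway genes, 6 rose in CB_hi against CB_low and 3 fell, a share close to the 21.3% of all genes called there, so nothing about the pathway is read from this count. The largest rises were the transferrin receptor gene Tfrc at 1.99, Glrx at 1.28, G6pdx at 1.18 and Tkt at 1.13, and the falls were Mgst2 at -2.97, Trp53inp1 at -2.70 and Sesn1 at -1.82. In CB_int against CB_low 1 of the 41 rose, Glrx at 1.24, and in CB_hi against CB_int 0 were called.

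Across gestation the set did not pass the test anywhere. Hmox1 was at 2.19 and 0.691 RPKM in virgin mice, 1.05 and 0.0295 RPKM at gd6.5 and 3.06 and 0 RPKM at gd8.5, and was not tested. Gclc (1.55 to 4.07 RPKM), Gclm (0.213 to 2.13 RPKM) and Nqo1 (0 to 0.424 RPKM) were too low to test as well, and Slc7a11 had no read. Nqo1 did not exceed 1.92 RPKM in the subsets either and was at 3.33 and 1.26 RPKM at 0 h of the time course without IL-21, while the controls of the inhibitor culture had 47.7 and 27.6 RPKM. Prdx1 was at 246 and 421 RPKM in virgin mice, 366 and 351 RPKM at gd6.5 and 428 and 447 RPKM at gd8.5. Nfe2l2 ran from 12.9 to 27.1 RPKM and Osgin1 from 7.83 to 30.3 RPKM over the 6 libraries. Srxn1 was at 3.42 and 13.3, 13.0 and 12.8, and 11.4 and 5.44 RPKM, and Txnrd1 at 15.4 and 9.85, 18.2 and 17.4, and 10.7 and 6.79 RPKM; both entered the test only through gd6.5.

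Of the 5 genes tested, 0 were called at gd6.5 against virgin (6.21% of all genes called), 0 at gd8.5 against virgin (0.337%) and 0 at gd8.5 against gd6.5 (0%). These backgrounds moved widely. The 276 genes called at gd6.5 against virgin became 0 without either gd6.5 library or with only the groups compared, 2 with the replicate block, and 470 and 896 without replicate 1 and replicate 2 of virgin mice. The 0 at gd8.5 against gd6.5 became 248 with only the groups compared and 220 with DESeq2. At an unadjusted p under 0.05 the edgeR counts were 0, 0 and 1 of the 5, the last being Txnrd1, lower by 1.01 at gd8.5 than at gd6.5 (adjusted p = 0.128), which DESeq2 called. Of 36 listed pathway genes, 0 were called in any of the 3. Without replicate 2 of virgin mice, the log2 fold change was 1.89 for Srxn1 at gd6.5 and -1.46 for Osgin1 at gd8.5, both against the lone virgin library. The library left out held the higher Srxn1 of the virgin pair, 13.3 RPKM, and the lower Osgin1, 11.8 RPKM. In the main fit Srxn1 passed the level filter only through gd6.5, and Osgin1 only through virgin mice and gd6.5. These values are a description. Hemoglobin transcripts differed between these libraries: the erythroid list summed to 12.8 to 224 RPKM in virgin mice, 0.237 to 0.3005 RPKM at gd6.5 and 0.2515 to 844 RPKM at gd8.5. The gd8.5 library with 493 RPKM of Hba-a1 had no Hmox1 read, and the other gd8.5 library had 90. The part of these transcripts in the levels of Hmox1 was not tested.

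The genes whose levels followed Hmox1 most closely were taken by Pearson's r of log2(RPKM + 1), centred within each experiment, over the 34 libraries and among 5625 genes. They were Ube2d3, a ubiquitin-conjugating enzyme (0.818), Ahsa2, a relative of an HSP90 activator (0.790), Esd (0.772), the ferritin light chain Ftl1 (0.766) and Prdx1 (0.751). Of the other members, Gclm stood at rank 22 (0.673), Srxn1 at 27, Nqo1 at 33, Txnrd1 at 69, Osgin1 at 207, Gclc at 355 and Nfe2l2 at 640 (0.312). Without the 6 libraries of the inhibitor culture r was 0.768 for Ube2d3, 0.727 for Ftl1, 0.648 for Ahsa2, 0.420 for Esd and 0.319 for Prdx1. For the other members it was then 0.670 for Gclm, 0.667 for Nqo1, 0.614 for Txnrd1, 0.376 for Srxn1, 0.189 for Nfe2l2, 0.113 for Osgin1 and 0.093 for Gclc. These values are a description over libraries of 4 experiments, and total counts varied over 2-fold within the culture and within the time course.

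The single-cell matrix held 15175 cells, of which 8907 with 200 to 2500 genes and under 10% mitochondrial UMIs were kept. A UMI is a molecular tag that counts an original RNA molecule once. The study's methods set the limits of 200 and 2500 on UMIs rather than genes, which here kept 4338 cells and was run as an alternative. The cells formed 18 clusters, computed without the members and the listed pathway genes, and 13 of them were named from marker lists. The cells of virgin and gd8.5 mice form 1 pooled sample here, so levels per class are given as CPM (the UMIs of a gene in a class, scaled to the same total for every class) with exact Poisson 95% intervals, which cover counting error only, and no test is made. Of the 10 genes, 9 were in the matrix, and Slc7a11 was not analysed here.

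Hmox1 was high in 2 classes that the sort should have left out. It reached 605 CPM (512 to 711, 149 UMIs in 89 cells) in erythroid-like cells and 201 (185 to 219, 552 UMIs in 862 cells) in macrophage-like cells. In trNK-like cells as a whole it was at 11.2 (9.65 to 12.9, 193 UMIs in 4277 cells), within the intervals of B-like cells, 11.3 (4.54 to 23.3), and T-like cells, 10.98 (4.03 to 23.9), which had median depths of 1825 and 1964 UMIs per cell. The intervals of B-like and T-like cells rest on 7 and 6 UMIs, and whether the trNK-like level is background or low expression was not tested. Within trNK-like cells Hmox1 was at 15.99 (10.8 to 22.8) in the virginal stage and 14.9 (10.3 to 20.8) in dividing cells. It was at 10.95 in the terminal stage, with 14.8 (10.6 to 20.0) in cluster 1 and 9.16 (6.88 to 11.95) in cluster 2. Of the cells without a stage, cluster 3 had 8.03 (5.56 to 11.2) and cluster 5 had 0 UMIs (0 to 18.0). All these intervals overlap.

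Conventional NK-like cells (cNK-like, 1024 cells) had 49.7 CPM of Hmox1 (40.2 to 60.8), above the intervals of trNK-like, B-like and T-like cells. Their macrophage markers summed to 369 CPM, against 461 in B-like cells and 23660 in macrophage-like cells. In erythroid-like cells these markers summed to 2368 CPM, below the macrophage-like level, while Hmox1 was higher there than in macrophage-like cells. The other clusters with much Hmox1 were unnamed. Cluster 9, led by Mcpt4 and Tpsb2, had 196 CPM (171 to 224), with 4 macrophage markers raised and 5748 CPM of these markers in sum. Cluster 14, led by Ace and Ly6i, also had 196 CPM (169 to 226), with 3 monocyte, 3 neutrophil and 2 macrophage markers raised and a macrophage sum of 4374 CPM. The heat shock genes Hspa1a and Hspa1b stood at 1020 and 1912 CPM in cNK-like cells and 1796 and 1800 in macrophage-like cells. They were at 374 and 511 in all trNK-like, 157 and 209.7 in B-like, 275 and 373 in T-like and 410 and 557 in erythroid-like cells. The part of these markers and stress genes in the levels of Hmox1 was not tested.

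Nfe2l2 followed another order. It was highest among the larger classes in macrophage-like cells, at 369 CPM (347 to 393), and low in erythroid-like cells, at 28.4 (11.4 to 58.6). Among trNK-like cells it was at 76.8 (64.7 to 90.4) in the virginal stage, 38.5 (33.0 to 44.8) in trNK-like cells without a stage, 28.9 (22.4 to 36.8) in dividing cells and 13.3 (10.95 to 15.9) in the terminal stage. Of neighbours in this order, the intervals overlap between cells without a stage and dividing cells. Among the same cells Prdx1 was lowest in the virginal stage, with 257 (235 to 281), and was at 457 (437 to 477) without a stage, 489 (474 to 504) in the terminal stage and 614 (582 to 646) in dividing cells. The intervals of cells without a stage and of the terminal stage overlap. The bulk subsets, which were separate libraries, had the same order for CB_low and CB_hi cells in both genes. The middle subset, CB_int, had nearly the Nfe2l2 mean of CB_low, at 28.1 against 28.3 RPKM. Its Prdx1 mean of 343 RPKM lay between 189 in CB_low and 390 in CB_hi. Under the limits on UMIs no cluster was named by the virginal or the terminal stage, so these stages could not be compared there.

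**Figure D5:**
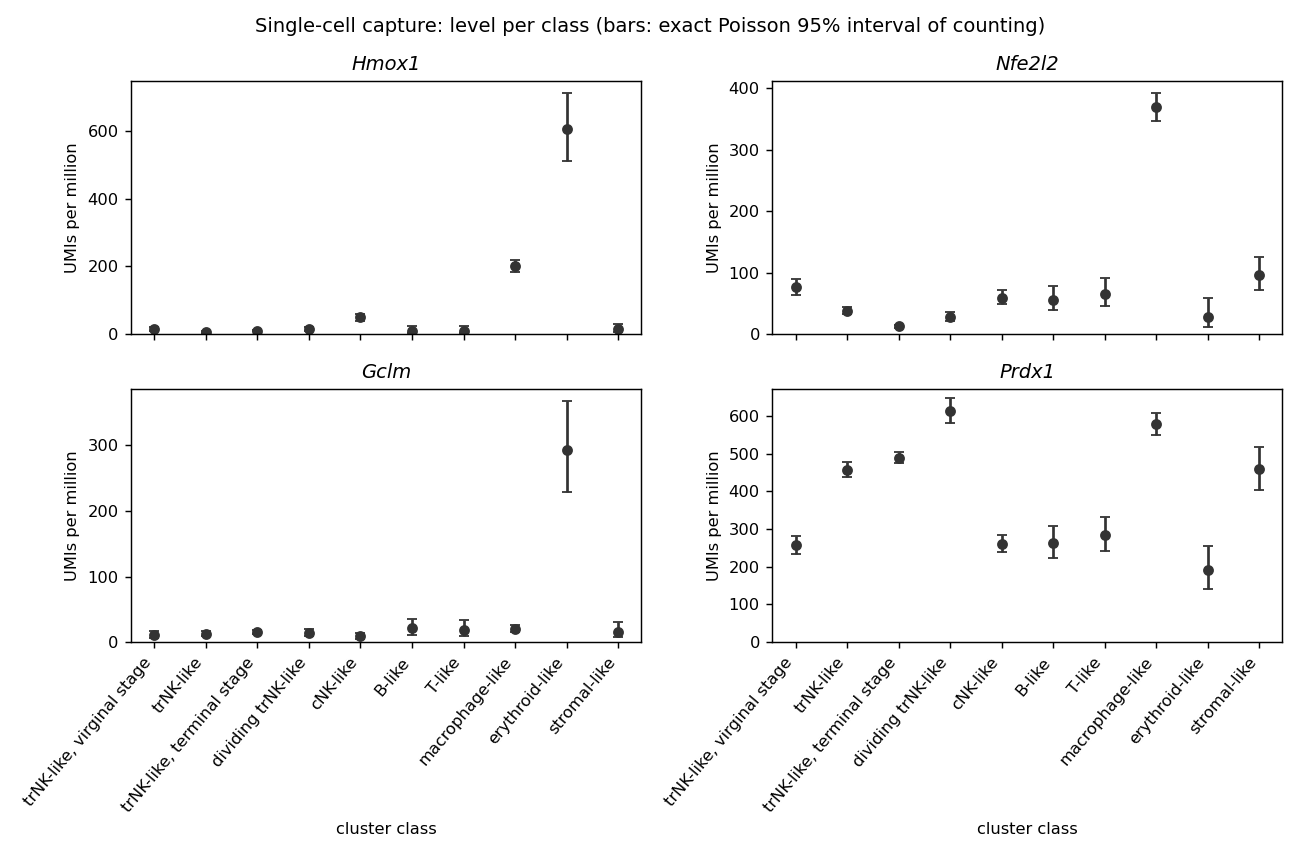
CPM of Hmox1, Nfe2l2, Gclm and Prdx1 (linear axes from 0) in 10 named classes of single cells, with exact Poisson 95% intervals (bars). Hmox1 is at 605 in erythroid-like and 201 in macrophage-like cells and at 11.2 in all trNK-like cells, and Nfe2l2 is at 76.8 in the virginal and 13.3 in the terminal stage.

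The remaining members had class patterns of their own. Gclm was at 293 CPM in erythroid-like cells (229 to 368) and between 8.90 and 20.97 in the other named classes of over 100 cells. Osgin1 was at 25.3 (23.0 to 27.8) in trNK-like cells, against 4.71 (2.15 to 8.94) in cNK-like and 3.23 (0.391 to 11.7) in B-like cells, and reached 72.7 (60.7 to 86.3) in the unnamed cluster 4, led by Cxcr6. Srxn1 was at 14.01 (12.3 to 15.9) in trNK-like and 15.7 (10.6 to 22.4) in cNK-like cells, and at 1.61 (0.0408 to 8.99) in B-like cells. Txnrd1 was at 66.1 (62.3 to 70.0) in trNK-like cells, 35.7 (29.0 to 43.5) in macrophage-like and 21.96 (11.4 to 38.4) in T-like cells. It was as high in cNK-like cells, at 70.7 (59.2 to 83.6), and in the unnamed cluster 4, at 75.5 (63.3 to 89.4). Gclc was at 48.0 (38.6 to 59.0) in the virginal and 24.1 (20.9 to 27.6) in the terminal stage. Nqo1 had 15 UMIs in all 8907 cells, 0.535 CPM, with none in B-like, T-like or cNK-like cells, where a count of 0 allows up to 5.95, 6.75 and 1.93 CPM.

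Of the regulators, Bach1 was at 126 CPM in macrophage-like cells and 13.7 in trNK-like cells, while Keap1 was at 47.6 (38.3 to 58.5) in cNK-like and 59.7 (42.0 to 82.3) in B-like cells, and both intervals overlap that of macrophage-like cells (46.6 to 64.5). Fth1 was at 8451 against 1716 and Ftl1 at 2606 against 861 in the same classes, and both of these ferritin chains store the iron that heme breakdown sets free.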

How the data were processed

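The authors aligned bulk reads to mm10 with HISAT2 2.1.0 per the labels; featureCounts is named there and RSEM in the methods. The files the authors deposited hold raw counts per gene with exon positions and lengths, and UMI counts per cell for the single cells, without normalization. The strand setting is not given in the sources used here. RPKM were computed from counts and lengths. Each experiment was fitted once over all its groups with edgeR 4.0.16 (TMM, quasi-likelihood, R 4.3.3), on genes that passed an RPKM of 10 in every library of at least 1 group; a standard error is the log2 fold change over the root of its F value. The test was checked on simulated counts. DESeq2 1.42.0, limma-voom 3.58.1, RLE size factors, filterByExpr, no filter, only the groups compared, a replicate block and leaving out each library were alternatives. The study names limma for its comparisons; counts were tested with edgeR here. Chromatin libraries were not analysed here.

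Cells were clustered with scanpy 1.11.5 (2000 variable genes, 20 components, 20 neighbours, Leiden resolution 0.8). A marker counted for a cluster when it exceeded the remaining cells over 2-fold on at least 10 UMIs. A cluster took the name of a cell type when that type had at least 3 such markers and more than any other, 1 of them was among the 10 leading genes, and the median UMI count was not below that of all cells divided by 3. Remaining clusters at that depth were trNK-like when Ncr1, Klrb1c, Eomes and Itga1, or Eomes and Itga1 with 3 terminal-stage markers, exceeded B-like cells over 2-fold, fewer than 3 markers of any type besides cNK, T, gamma delta T and ILC1 counted, and markers of other types did not lead the top genes; 3 markers then gave the stage or dividing cells. Clusters failing any condition stayed unnamed whatever their marker counts. These limits were chosen after seeing the clusters. The limits on genes per cell replace the study's limits on UMIs. No doublets were removed.

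The members and gene lists were chosen with earlier results of these data known. The genes named beyond the members are Keap1, Bach1, Mafg and Mafk, up to 4 called pathway genes per direction in each comparison, up to 3 called stress or STAT3 genes, the highest cell markers, and the 5 genes most like Hmox1. Other genes the text names were singled out after their values were seen. Of the metallothionein list, 1 gene was tested against IL-21 and 0 were called.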

Additional observations from a re-analysis of the deposited data

Results flagged for a closer look

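In the time course, both Srxn1 libraries labelled with IL-21 lay below both others at 0 h and above both others at 6 h. At 0 h it was at 3.17 and 1.88 RPKM without and 1.81 and 1.44 RPKM with IL-21, a log2 ratio of means of RPKM + 1 of -0.42, and at 6 h this ratio was 1.22, so that the ratios differed by 1.65. Srxn1 was below the level filter in this experiment, and the difference was not tested. Over the genes that were tested, libraries with and without IL-21 did not overlap in 33.2% at 0 h and in 58.9% at 6 h. The labels give a time of 0 h for the first libraries with IL-21 too, and 0 genes were called there.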

How the results depend on the processing

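The spread between the libraries of a group, as a biological coefficient of variation, was 0.358 in the inhibitor culture. The part of read depth, of this spread and of the level filter in what was called was not tested. For the number of members called, IL-21 plus Stattic against IL-21 gave 4, and 0 with the replicate block, 8 with DESeq2, 0 with filterByExpr and 0 to 2 without a library. IL-21 against the control gave 1, and 0 with the block, 2 with DESeq2, 0 with filterByExpr, 2 with no filter, 0 with only the groups compared and 0 to 1 without a library. IL-21 plus Stattic against the control gave 6, and 2 with the block, 1 with filterByExpr and 1 to 2 without a library. CB_hi against CB_low gave 2, and 1 with filterByExpr and 0 to 2 without a library. Where the main count was 0, CB_hi against CB_int gave 1 with the block, with DESeq2 and with no filter, gd8.5 against gd6.5 gave 1 with DESeq2, 2 with no filter and 1 with only the groups compared, and both comparisons with virgin mice gave 0 to 1 without a library. In the time course, IL-21 at 6 h gave 1 with DESeq2 and with limma and 2 with only the groups compared, IL-21 at 24 h gave 1 and at 72 h 2 with no filter, and 72 h against 24 h gave 2 with DESeq2 and 1 with no filter. Over all genes, IL-21 plus Stattic against IL-21 called 123 genes, 7 with the block, 441 with DESeq2, 461 with no filter and 1 of 13647 with filterByExpr, which tests more genes. No direction of a called member turned, and RLE size factors moved no count by over 1.5 times. Other counts over all genes moved as well: CB_hi against CB_low from 985 to 2022 with no filter and to 544 and 364 without replicate 2 of CB_low and of CB_hi, CB_hi against CB_int from 81 to 151 with the block, 326 with DESeq2, 11 with filterByExpr and 0 to 38 without a library, CB_int against CB_low from 15 to 188 with DESeq2 and 0 to 18 without a library, gd8.5 against virgin from 15 to 162 with DESeq2 and 0 to 584 without a library, IL-21 at 6 h from 68 to 233, at 24 h from 58 to 309 and at 72 h from 279 to 4 with only the groups compared, and 72 h against 24 h from 518 to 72 likewise. The shared replicate numbers were not taken to pair the samples: deviations of same-numbered libraries correlated between -0.295 and 0.106 in gestation, 0.0124 and 0.4 in the subsets, -0.508 and 0.598 in the culture and -0.397 and 0.48 in the time course. The cause of these differences was not tested.

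In the single cells, the study's limits of 200 to 2500 on UMIs put Hmox1 at 463 CPM in erythroid-like, 291 in macrophage-like and 18.8 in trNK-like cells, and no upper limit put it at 28.0 in cNK-like and 7.94 in trNK-like cells. These 2 classes hold other clusters than in the main setting: the first joins cluster 9, led by S1pr5, at 48.9 CPM (40.0 to 59.0), with cluster 12, led by Cox6a2 and with 4 markers of the virginal stage, at 14.6 CPM (10.8 to 19.3), and several clusters stayed unnamed. A virginal-stage cluster was named only in the main setting and with 3000 variable genes, and a terminal-stage cluster in all but the limits on UMIs.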
